A study of Homo sapiens with 20 samples.

Results

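The 10 genes described here are the ID factors ID1, ID2, ID3 and ID4 and 6 genes of the bone morphogenetic protein (BMP) pathway: the ligands BMP4 and BMP7, the receptor BMPR1B, the inhibitory SMADs SMAD6 and SMAD7, and the secreted antagonist NOG (noggin). They were chosen by symbol, taking for each the coding record that lists it, and they are 10 of 20237 coding records and of 38369 records in all. Each symbol had 1 record, and 0 of the 10 records were merged with a neighbouring gene. The cells were neural progenitors made from the established human embryonic stem cell line H1. They were expanded with FGF, which sustains progenitor division, and at day 0 the medium was changed to one without FGF and with BDNF, a neurotrophic factor. Polyadenylated RNA was sequenced on day 0, on days 1, 2 and 4 and on days 5, 11 and 18, from 3 cultures a day except day 5, for which the submitters kept 2. Cultures collected on days 5, 11 and 18 had been moved on day 4 from a Matrigel coating to poly-D-lysine and laminin, so days 4 and 5 also differ in that. All cultures came from this 1 line, and the labels give no other treatment or allele and list no culture kept in FGF after day 0.

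BMP ligands are secreted dimers that bring type I and type II serine/threonine kinase receptors together. The type I receptor then phosphorylates SMAD1, SMAD5 and SMAD9, which enter the nucleus with SMAD4 and switch on target genes, among them the ID genes, SMAD6 and SMAD7. ID proteins are helix-loop-helix proteins without a DNA-binding region that hold E proteins in inactive pairs, so that proneural factors lack their partner. In neural tissue they are best known for keeping progenitors from differentiating, while blocking BMP signals with antagonists such as noggin favours neural fate.

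The region just upstream of the start is shown for ID1, the ID gene with the largest relative increase, and for ID4, the most abundant member by its mean. The windows hold the 250 bases before the start in RefSeq (GRCh38.p14), and both were found by exact match in the hg19 (GRCh37) build that the deposited records use. The ID1 window lies at chr20:30192842-30193091 on the plus strand and ends at the base before the deposited record. The ID4 window lies at chr6:19837351-19837600 on the plus strand, and the deposited record begins 16 bases past the RefSeq start. Capitals mark matches on either strand to the SMAD box CAGAC, the GC-rich SMAD site GGCGCC, the E-box CANNTG bound by helix-loop-helix pairs, or the TATA box TATAAA.
ID1: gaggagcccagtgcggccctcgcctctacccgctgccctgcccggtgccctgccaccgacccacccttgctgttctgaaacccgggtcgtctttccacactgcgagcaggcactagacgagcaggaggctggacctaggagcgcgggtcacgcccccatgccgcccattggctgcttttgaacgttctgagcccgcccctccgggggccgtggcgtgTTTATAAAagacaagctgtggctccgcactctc
ID4: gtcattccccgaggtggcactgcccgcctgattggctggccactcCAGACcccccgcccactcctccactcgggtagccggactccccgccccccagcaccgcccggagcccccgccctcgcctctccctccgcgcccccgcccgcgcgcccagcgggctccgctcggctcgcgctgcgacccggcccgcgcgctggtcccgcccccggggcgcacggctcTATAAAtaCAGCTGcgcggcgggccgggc
The ID1 window held a TATA box at position -31, counted back from the start, overlapped by a reverse-strand match at -33, and no match to the other 3 motifs. The ID4 window held a SMAD box at -205, a TATA box at -29 and an E-box at -21. The ID2 window held an E-box at -205, and the ID3 window a SMAD box at -147. Of 35116 windows of this length in the RefSeq table, 38.0% held the SMAD box, 16.4% the GC-rich site, 61.8% the E-box and 10.7% the TATA box, so these letters are common and their presence is a description of the sequence. The ID3 window is not printed because the deposited record begins 330 bases upstream of the RefSeq start and covers it. The ID2 record likewise begins 2846 bases upstream of the RefSeq start.

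Expression is given in FPKM, fragments per kilobase of transcript, scaled to the number of mapped fragments, as the authors' value for each day over its cultures. The FPKM file holds no value of a single culture, so no replicate error, test or interval could be given, and the depth behind each value is unknown. Changes are log2 ratios of FPKM + 0.1, later over earlier day, which understate the change of low genes, and a gene was counted as higher or lower at 2-fold. Each count stands beside the share of the 11793 coding records with a mean of at least 1 FPKM that moved as far. As a yardstick, 95% of coding records with a mean of 5 to 20 FPKM lay between -0.28 and 0.41 on the log2 scale from day 1 to day 2, and those with 1 to 5 FPKM between -0.54 and 0.60. Coding records had a median log2 change of -0.60 from day 0 to day 18, so the members' changes over the whole course are also given relative to that median, as are list counts and calls that it alters. In bulk RNA, fewer cells of a type and less RNA per cell cannot be told apart.

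The 4 ID genes took different courses over the 18 days. ID1 and ID2 were higher at the end, 7.25-fold and 5.99-fold, ID3 was 48.6-fold lower, and ID4 stayed the most abundant of them from day 1 on.

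ID3 (chr1:23884410-23886322, minus strand, hg19) stood at 44.8 FPKM on day 0, 10.5 on day 1, 7.85 on day 2, 7.46 on day 4, 6.44 on day 5, 3.68 on day 11 and 0.921 on day 18. Its level was thus highest in the FGF-grown progenitors and lower on each later day than on the one before. The log2 change from day 0 to day 18 was -5.46, or -4.86 relative to the coding median, and 17 coding records (0.144%) fell at least as far. Most of the difference lay in 2 steps, -2.08 on the log2 scale from day 0 to day 1, matched by 0.254% of coding records, and -1.89 from day 11 to day 18, matched by 0.102%. Between these, ID3 changed by -0.41 from day 1 to day 2, by -0.07 up to day 4, by -0.21 across the replating and by -0.79 (1.75-fold lower) up to day 11. With 1 FPKM added in place of 0.1, ID3 changed by -1.28 from day 11 to day 18 and by -4.58 over the course.

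ID1 (chr20:30193092-30194313, plus strand) stood at 1.58 FPKM on day 0, 4.06 on day 1, 6.69 on day 2, 6.26 on day 4, 6.77 on day 5, 10.7 on day 11 and 11.45 on day 18. Its level was lowest on day 0, nearly level from day 2 to day 5, and highest on the last pair of days. The log2 change was 1.31 from day 0 to day 1 (2.57-fold) and 2.78 over the whole course, which 1.78% and 1.83% of coding records matched, and the latter was 3.38 relative to the coding median. With 1 FPKM added in place of 0.1, the day 1 change was 0.97, just under 2-fold. The step from day 1 to day 2, 0.71, stayed under 2-fold, but only 0.661% of coding records rose as far in it.

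ID2 (chr2:8819340-8824581, plus strand) stood at 3.18 FPKM on day 0, 4.89 on day 1, 5.175 on day 2, 5.06 on day 4, 7.81 on day 5, 19.1 on day 11 and 19.0 on day 18. It was higher than ID1 on days 0 and 1, lower on days 2 and 4, and higher again from day 5. Its main step came later than that of ID1, 1.28 on the log2 scale from day 5 to day 11 (2.44-fold), matched by 1.03% of coding records. From day 4 to day 5, across the replating, it changed by 0.62, which 1.63% of coding records matched. Over the whole course its log2 change was 2.54, or 3.14 relative to the coding median.

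ID4 (chr6:19837617-19840914, plus strand) stood at 42.9 FPKM on day 0, 54.2 on day 1, 53.4 on day 2, 58.5 on day 4, 50.4 on day 5, 64.2 on day 11 and 65.65 on day 18. Its lowest and highest days differed 1.53-fold, the least of the ID genes. The log2 change over the course was 0.61, under 2-fold as deposited, and 1.21 relative to the coding median, where it counts as higher.

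**Figure D1:**
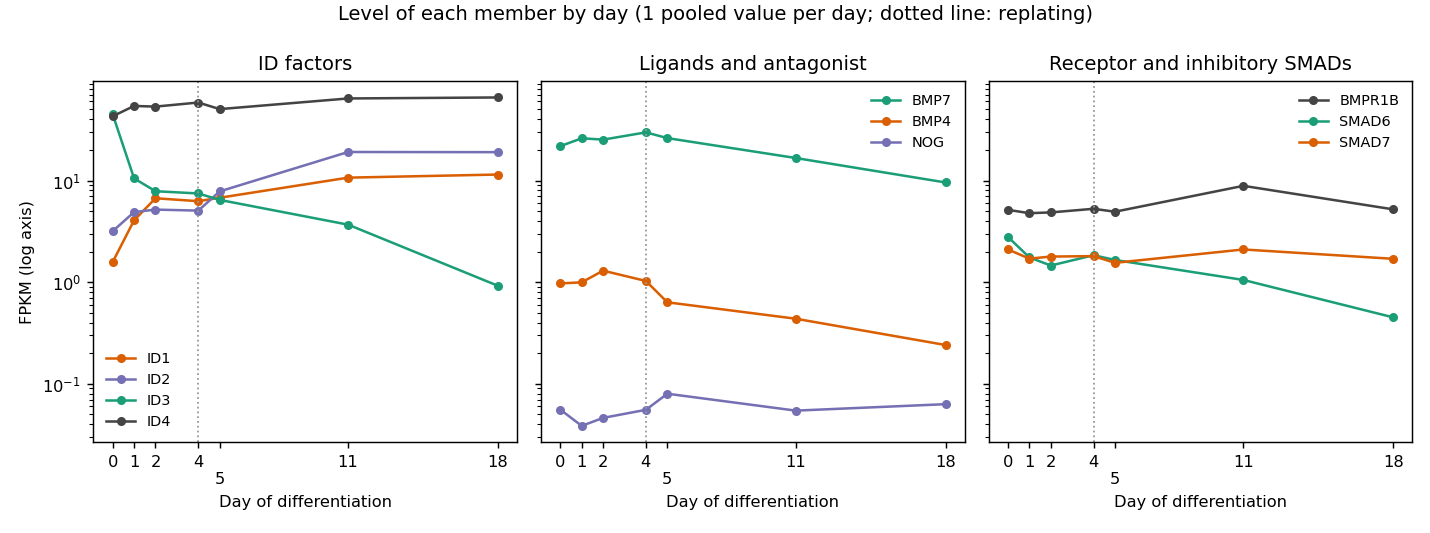
FPKM on a log axis against day of differentiation for the 10 members, in 3 panels by role, each point being the authors' pooled value of 1 day and the dotted line marking the replating on day 4. ID3 goes from 44.8 to 0.921 FPKM while ID1 goes from 1.58 to 11.45 and ID2 from 3.18 to 19.0, and NOG lies below 0.1 FPKM on every day.

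Since FPKM is scaled to transcript length, the ID genes can be set beside each other. Their summed level was 92.4 FPKM on day 0, 73.6 on day 1, 71.4 on day 5, 97.6 on day 11 and 97.0 on day 18. As deposited, the sum on day 18 was 1.05 times that of day 0, but 1.59 times relative to the coding median and 1.73 times with each day scaled to the same total. The make-up does not depend on this scaling. ID3 held 48.5% of the sum on day 0, 14.2% on day 1 and 0.949% on day 18. ID4 went from 46.4% to 73.6% between day 0 and day 1 and held 67.7% on day 18. ID2 went from 3.44% to 19.6% over the course, and ID1 from 1.71% to 11.8%.

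**Figure D2:**
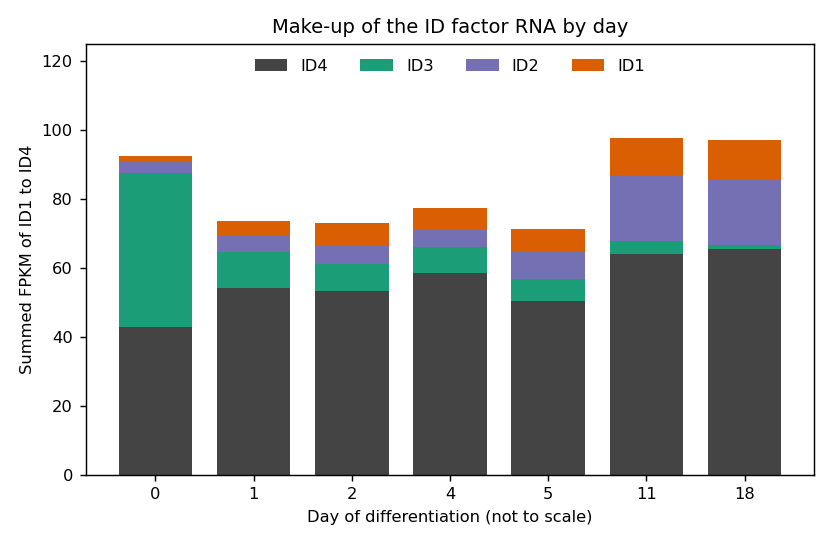
Stacked bars of summed FPKM of ID1 to ID4 for each of the 7 days, 1 pooled value a day and no error bars, with days spaced evenly. The ID3 segment takes 48.5% of the bar on day 0 and 0.949% on day 18, and the total lies between 71.4 and 97.6 FPKM.

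Antisense records share exon bases with several of these genes, and with unstranded counting, the default of the programs used, reads of the 2 strands cannot be told apart. A record named linc-ID1-AS covered 82.2% of the ID1 exon bases and lay between 0.010 and 0.033 FPKM over the days. The record linc-ID2-AS covered 89.1% of the ID2 exon bases and went from 0.285 FPKM on day 0 to 1.47 on day 11 and 1.29 on day 18. The record linc-ID3-AS covered 25.4% of the ID3 exon bases and had an uneven course. It stood at 1.73 FPKM on day 0, 0.0008 on day 1, 0.133 on day 2, 0.857 on day 4, 0.148 on day 5, 0.287 on day 11 and 0.049 on day 18. Each lay below its sense gene on every day, and how reads were divided between the strands was not tested. ID4 had no such partner.

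Cell type markers moved over the same days. The 4 proliferation markers (4 of 4 above 1 FPKM) summed to 396.9 FPKM on day 0, 197.4 on day 1, 180.9 on day 11 and 68.2 on day 18, and, unlike ID3, they were higher on day 11 than on day 5 (142.2 FPKM). The 6 mesenchymal markers, 3 of them above 1 FPKM, summed to 278.7 on day 0, 269.5 on day 1 and 36.9 on day 18. Most of it was COL3A1, at 238.0 FPKM on day 0 and 235.6 on day 1. In that step COL1A2 went from 33.6 to 30.3 FPKM, LUM from 5.80 to 2.78, TWIST1 from 1.21 to 0.70 and PRRX1 from 0.117 to 0.137. COL1A1 was listed at 0 on every day. The endothelial list (PECAM1 had no record) was low, from 4.84 FPKM on day 0 to 0.998 on day 1 and 0.127 on day 18. Progenitor markers (7 of 7) summed to between 4644 FPKM on day 2 and 1839 on day 18, most of it VIM. Over the course VIM went from 2948 to 1493 FPKM, NES from 513.5 to 180.4, SOX2 from 126.5 to 66.05 and MSI1 from 47.75 to 35.2. The others went the other way, PAX6 from 4.31 to 10.4 FPKM, HES5 from 1.95 to 20.0 and SOX9 from 7.25 to 34.8. Summed neuron markers (6 of 6) went from 149.6 FPKM on day 0 to 1083 on day 18. Among astrocyte markers, 2 of 5 were above 1 FPKM, and the sum went from 25.5 to 67.6 FPKM. The defining marker GFAP stayed at or below 0.1865 FPKM, while SLC1A3, a glutamate transporter that radial glia also carry, went from 16.2 to 63.1. S100B went from 8.69 on day 0 to 0.593 on day 2 and 4.25 on day 18. Of the neural crest list, 3 of 5 were above 1 FPKM, and its sum lay between 8.57 FPKM on day 2 and 21.4 on day 11, with SOX10 and FOXD3 below 0.2 FPKM. Pluripotency markers summed to 9.82 FPKM on day 0 and 2.29 on day 18, nearly all of it DPPA4, with POU5F1 and NANOG near 0. The part of any of these in the values of the ID genes was not tested.

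BMP7 was the main ligand among the members and BMP4 was expressed at a low level, and both were lower at the end. BMP7 (chr20:55743809-55841707, minus strand), a ligand of the 60A subgroup, stood at 21.8 FPKM on day 0, 26.0 on day 1, 25.2 on day 2, 29.8 on day 4, 26.1 on day 5, 16.6 on day 11 and 9.57 on day 18. Its level was highest on day 4 and lowest on day 18. The log2 change from day 0 to day 18 was -1.18 (2.28-fold lower), and relative to the coding median it was -0.58, under 2-fold. Coding records that fell at least as far as BMP7 made up 22.8%.

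BMP4 (chr14:54416457-54423554, minus strand), which dorsalizes the neural tube, stood at 0.971 FPKM on day 0, 0.996 on day 1, 1.30 on day 2, 1.03 on day 4, 0.633 on day 5, 0.437 on day 11 and 0.241 on day 18. Its level was near 1 FPKM up to day 4 and lower on each day after. The log2 change over the course was -1.65 (4.03-fold lower) and -1.05 relative to the coding median, and 11.2% of coding records fell as far. With 1 FPKM added in place of 0.1 it was -0.67, under 2-fold. The change across the replating, -0.62, was matched by 0.899% of coding records. Those records had a mean of at least 1 FPKM, while BMP4 had a mean of 0.80. Records with 1 to 5 FPKM lay between -0.54 and 0.60 from day 1 to day 2, so little is read from this share. An antisense record covered 86.5% of the BMP4 exon bases, at no more than 0.058 FPKM.

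NOG (chr17:54671060-54672951, plus strand), which binds BMP ligands and keeps them from their receptors, stood at 0.056 FPKM on day 0, 0.039 on day 1, 0.046 on day 2, 0.055 on day 4, 0.080 on day 5, 0.054 on day 11 and 0.063 on day 18. These levels were the lowest of the 10 members on every day, and no direction was read from them. BMP4 and NOG had means below 1 FPKM and would not have entered the 11793 background records, which 8 of 10 members did.

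BMPR1B (chr4:95679128-96079592, plus strand), a type I receptor, stood at 5.15 FPKM on day 0, 4.77 on day 1, 4.85 on day 2, 5.27 on day 4, 4.93 on day 5, 8.87 on day 11 and 5.20 on day 18. Day 11 stood above the other 6 days, which lay within 4.77 and 5.27 FPKM. The log2 change was 0.83 for day 11 against day 5 and -0.76 for day 18 against day 11, both under 2-fold, and 0.02 over the course, or 0.61 relative to the coding median. Among the 3 type I receptors that bind BMPs here, BMPR1B made up 15.8% of the summed FPKM on day 0, 30.7% on day 11 and 26.8% on day 18. BMPR1A went from 68.4% to 44.3% and ACVR1 from 15.8% to 28.9%, while the sum went from 32.6 to 19.4 FPKM.

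SMAD6 and SMAD7 are feedback inhibitors that compete with the receptor SMADs and draw ubiquitin ligases to the receptors. SMAD6 (chr15:66994674-67074335, plus strand) stood at 2.78 FPKM on day 0, 1.75 on day 1, 1.46 on day 2, 1.84 on day 4, 1.65 on day 5, 1.05 on day 11 and 0.450 on day 18. Its level was highest on day 0 and lowest on day 18. The log2 change over the course was -2.39 (6.18-fold lower), or -1.79 relative to the coding median, and 4.19% of coding records fell as far. From day 11 to day 18 it was 2.33-fold lower, a log2 change of -1.06 that became -0.79 relative to the coding median of that step and -0.50 with 1 FPKM added, both under 2-fold.

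SMAD7 (chr18:46446224-46477081, minus strand), which also restrains TGF-beta signals, stood at 2.099 FPKM on day 0, 1.70 on day 1, 1.78 on day 2, 1.80 on day 4, 1.55 on day 5, 2.097 on day 11 and 1.70 on day 18. Its days lay within 1.36-fold of each other, the narrowest range of the 10 members. The log2 change over the course was -0.29 as deposited and 0.31 relative to the coding median, so its direction depends on the scaling. SMAD7 held 43.0% of the summed FPKM of the pair on day 0 and 79.0% on day 18, as the sum went from 4.88 to 2.15 FPKM.

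Counted by step, 2-fold changes of the members, like those of all coding records, fell mainly at the start and late in the course. The late steps also span more days. From day 0 to day 1, ID1 was higher and ID3 lower, beside 3.6% of coding records higher and 3.09% lower. From day 1 to day 2 none of the 10 was 2-fold higher or lower, beside 0.136% and 0.144% of coding records. The same held for day 4 against day 2, beside 0.127% higher and 0.653% lower, and for day 5 against day 4, beside 0.254% higher and 0.0509% lower. From day 5 to day 11, ID2 was higher and no member lower, beside 1.8% and 4.24%. From day 11 to day 18 no member was higher and ID3 and SMAD6 were lower, beside 0.839% and 3.72%.

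From day 0 to day 18, 2 of 10 members were higher (ID1 and ID2) and 4 lower (ID3, BMP4, BMP7 and SMAD6), beside 7.57% of coding records higher and 29.9% lower. The median log2 change of the members was -0.14 and that of coding records -0.60. Relative to the coding median, 3 members were higher (ID4 joined them) and 3 lower (BMP7 dropped out), beside 14.7% and 12.1% of coding records. With 10 members, these counts describe the genes named and are not read as a property of the group.

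**Figure D3:**
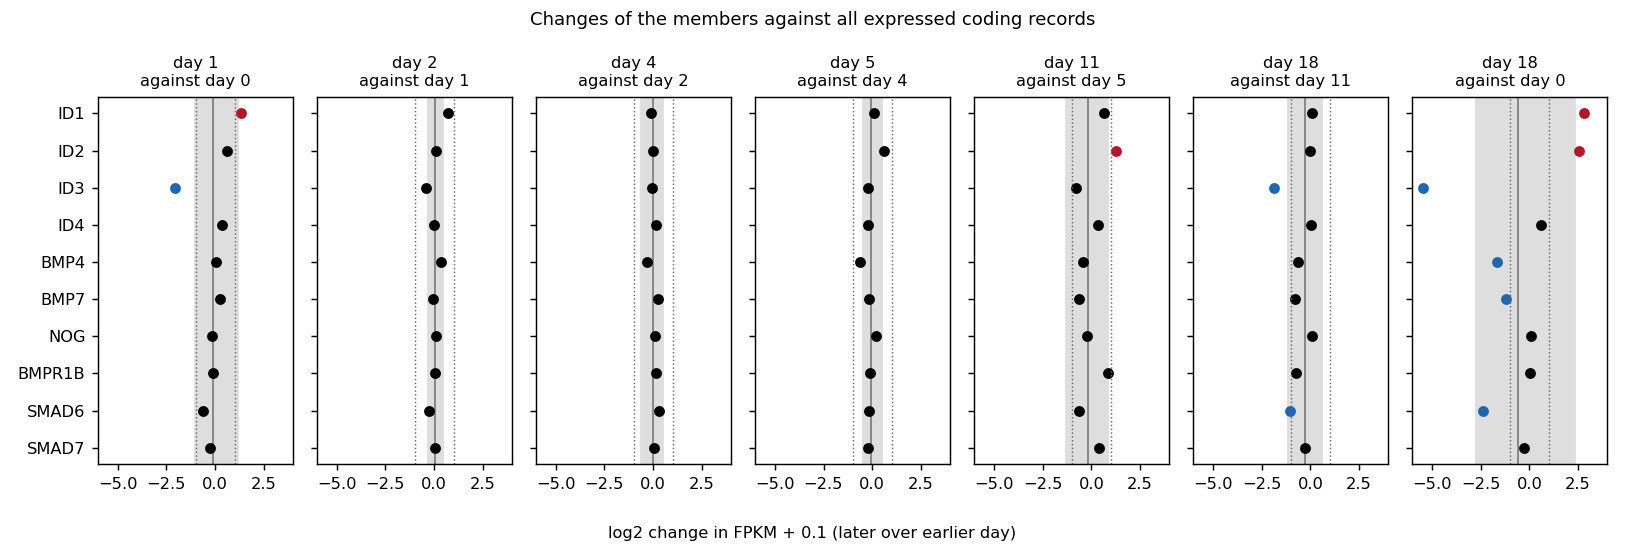
Log2 change in FPKM + 0.1 of the 10 members in each of 7 comparisons, with red points at least 2-fold higher, blue points at least 2-fold lower and black points neither. The grey band holds the central 95% of 11793 coding records, the solid line their median and the dotted lines 2-fold. ID3 lies outside the band in the steps to day 1, day 2 and day 18 and over the whole course, where it reaches -5.46.

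Other genes were taken from lists of 70 genes by role, all with a coding record and 38 with a mean of at least 1 FPKM: 60 of the BMP pathway, of which 31 passed, and the E proteins and proneural factors. From day 0 to day 18, 3 of the 31 pathway genes were higher and 10 lower, with a median log2 change of -0.51, beside the 7.57% and 29.9% of all coding records above. Relative to the coding median, 8 were higher and 6 lower, beside 14.7% and 12.1%, and the median was 0.09. On day 1 against day 0, 0 of the 31 were higher and 3 lower, beside 3.6% and 3.09%. The calls by list that follow are read beside these shares. The minimum is a mean over the same 7 days, so a gene low on day 0, such as TLL2, can pass it through later days.

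Among 13 further ligands, only BMP5, of the same subgroup as BMP7, passed 1 FPKM. It stood at 9.003 FPKM on day 0, between 6.12 and 7.96 from day 1 to day 11, and at 1.97 on day 18, a log2 change of -2.14 over the course, or -1.54 relative to the coding median. BMP7 made up 68.6% of the summed FPKM of BMP4, BMP5 and BMP7 on day 0 and 81.2% on day 18, while that sum went from 31.8 to 11.8 FPKM. The next most abundant of these 13, BMP3 and GDF6, reached at most 0.709 and 0.434 FPKM. The list did not hold every ligand of the superfamily. GDF10, described below, was not on it and stood at 27.5 FPKM on day 0 and 0.430 on day 18.

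Among 9 further receptors and co-receptors, 7 passed 1 FPKM, with 1 higher and 1 lower over the course as deposited, and 4 higher (ACVR2A, RGMA, ACVR2B and BMPR2) and 0 lower relative to the coding median. ACVR2A, a type II receptor that activins also use, went from 6.74 to 21.4 FPKM (3.18-fold higher). BMPR1A, the main type I receptor on day 0, went from 22.3 to 8.60 (2.59-fold lower), a log2 change that was -0.76, under 2-fold, relative to the coding median. The co-receptors RGMA and RGMB were the most abundant of the list, at 34.6 and 49.9 FPKM on day 0, 80.0 and 106.8 on day 11, and 62.8 and 62.5 on day 18. The type II receptor ACVR2B went from 12.9 to 18.4 FPKM.

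None of the 4 receptor and common SMADs was 2-fold higher or lower over the course, with a median log2 change of -0.54, or 0.06 relative to coding records, where SMAD9 (1.38) counts as higher. SMAD1 went from 14.9 to 11.1 FPKM and SMAD5 from 18.7 to 10.3. The record of SMAD4, merged with ELAC1 and thus not SMAD4 alone, went from 24.1 to 15.1. None of the 5 intracellular inhibitors was 2-fold different either, with SKI, a SMAD corepressor, at 25.9 and 13.4 FPKM and the ubiquitin ligase SMURF2 at 16.6 and 9.47.

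Of 17 further antagonists, 10 passed 1 FPKM, of which 6 were lower and 1 higher over the course, with a median log2 change of -1.24. Relative to coding records 4 were lower and 2 higher, with a median of -0.64, as CRIM1 (-0.66) and NBL1 (-0.62) then lay under 2-fold. FST (follistatin, which binds activins and some BMPs) stood at 59.6 FPKM on day 0, 18.7 on day 1, 15.6 on day 2, 11.0 on day 4, 13.7 on day 5, 4.53 on day 11 and 3.21 on day 18. Like ID3 it was lower by over 2-fold on day 1, -1.67 on the log2 scale, and its change over the course was -4.17, or -3.57 relative to the coding median. FSTL1, a secreted relative of follistatin, was the most abundant of the list and went from 108.1 to 34.2 FPKM. TWSG1, which binds BMPs together with chordin, went from 30.1 to 8.90, CRIM1, a transmembrane protein that tethers BMPs, from 20.3 to 8.44, and SOSTDC1, an antagonist of BMP and Wnt signals, from 4.77 to 0.669. The record of NBL1, merged with C1orf151, went from 20.4 to 8.70.

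Of the BMP1 and tolloid family proteases, which process matrix proteins and, for some members, chordin, BMP1 went from 8.25 to 2.998 FPKM (2.75-fold lower, but -0.83 on the log2 scale relative to the coding median) and TLL2 from 0.503 to 1.79 (3.57-fold higher), while TLL1 reached at most 0.902. Of 9 other target genes of BMP-SMAD signalling, 2 passed 1 FPKM. ATOH8, a helix-loop-helix factor, stood at 6.72 FPKM on day 0, 2.07 on day 1 and 0.757 on day 18 (8.87-fold lower), and HEY1, which Notch also controls, at 2.54 on day 0, 4.09 on day 1, 4.25 on day 2 and 1.80 on day 18. TNFRSF11B, a decoy receptor, had a mean below 1 FPKM but stood at 4.05 on day 0, 0.487 on day 1 and 0.299 on day 18. ID3, ATOH8 and TNFRSF11B were thus each lower by over 2-fold on day 1, while ID1 was higher by over 2-fold and HEY1 changed by 0.67 on the log2 scale. ID2 (0.61), ID4 (0.34), SMAD6 (-0.64), SMAD7 (-0.29) and the other listed targets stayed under 2-fold in that step. Of coding records, 3.6% were higher and 3.09% lower by 2-fold, so these calls describe the genes named.

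The E proteins that ID proteins bind were expressed throughout, and none of the 3 was 2-fold different over the course, with a median log2 change of -0.78, or -0.18 relative to coding records. TCF12 was the most abundant, at 86.6 FPKM on day 0, 107.1 on day 11 and 73.2 on day 18. TCF3 went from 66.1 to 33.4 FPKM and TCF4 from 18.2 to 10.5.

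Of 7 proneural factors, the helix-loop-helix genes that start neurogenesis, 4 passed 1 FPKM and all 4 were higher over the course, beside 7.57% of coding records, with a median log2 change of 2.497. NEUROG2 and NEUROD4, below 1 FPKM on day 0, passed this mean only through later days, so the count only describes these genes. NEUROG2 stood at 0.693 FPKM on day 0, 5.06 on day 1, 19.4 on day 11 and 9.93 on day 18. NEUROD4 went from 0.370 FPKM on day 0 to 5.96 on day 11 and 3.02 on day 18. The NEUROD1 record, merged with CERKL, went from 1.55 to 8.62 and 5.93. These 3 records were highest on day 11, when ID2 stood at 19.1 FPKM, against 19.0 on day 18.

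**Figure D4:**
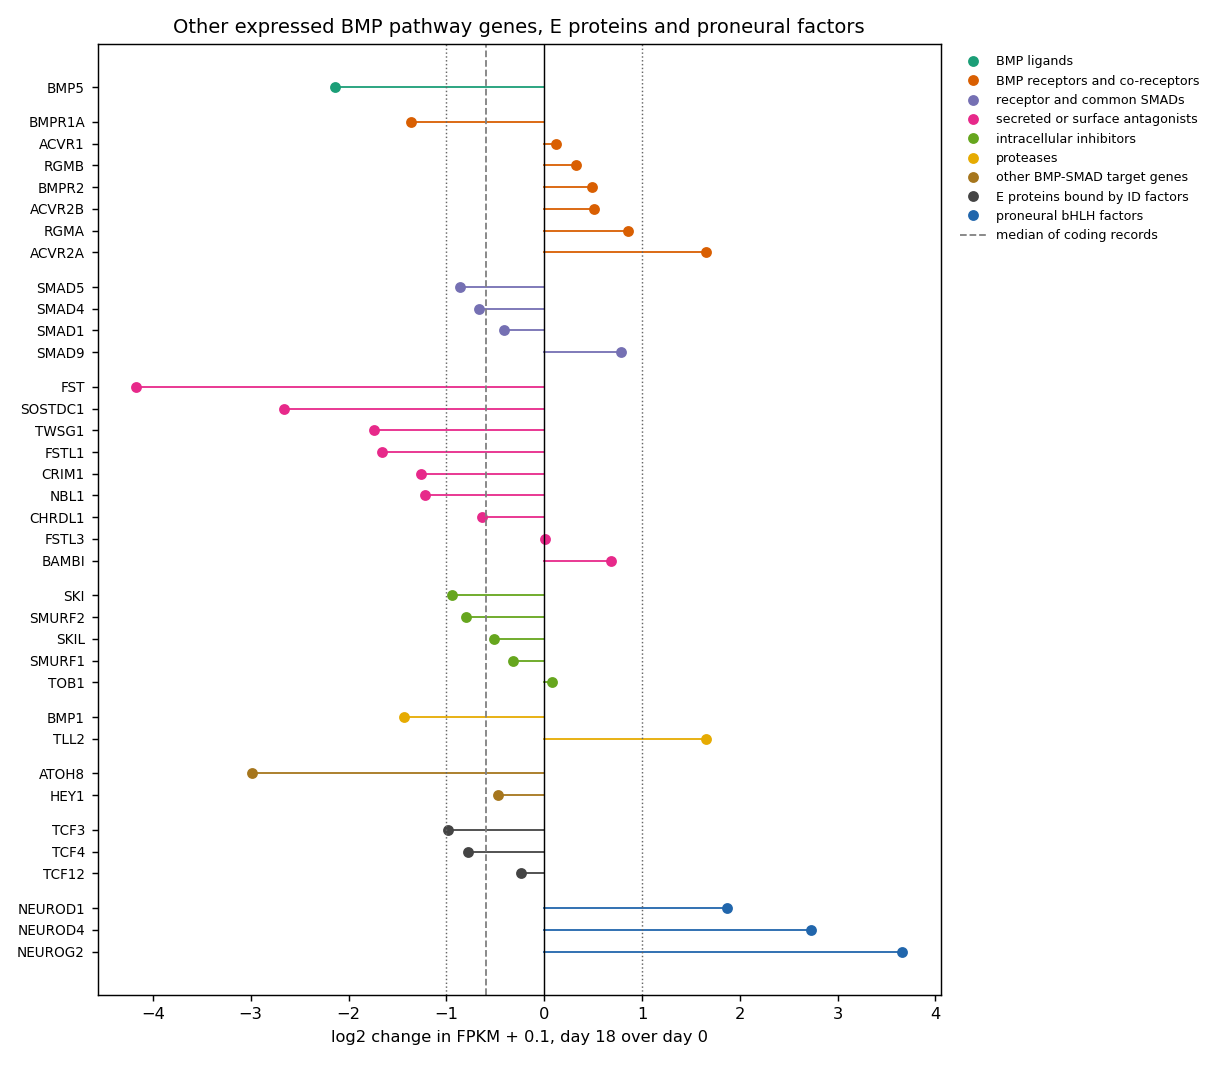
Log2 change in FPKM + 0.1 from day 0 to day 18 of 36 of the 38 listed genes with a mean of at least 1 FPKM, coloured by role, with dotted lines at 2-fold and a dashed line at the coding median of -0.60. FST lies lowest at -4.17 and NEUROG2 highest at 3.66, and 21 genes lie between the dotted lines.

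Among the 8 members with a mean of at least 1 FPKM, profiles were compared by the root mean square (RMS) difference of log2 values over the 7 days, each centred on its own mean. The closest pair was BMPR1B and SMAD7 (0.23), whose lowest and highest days differed 1.86-fold and 1.36-fold, and ID1 and ID2 differed by 0.49. The ID3 profile was nearest to that of SMAD6 (0.87) and farthest from those of ID1 (2.35) and ID2 (2.37), the largest differences among the members.

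Over 11248 other coding records, the profile most like that of ID3 was GDF10 (RMS 0.21), a ligand gene of the TGF-beta superfamily. It stood at 27.5 FPKM on day 0, 6.81 on day 1, 3.69 on day 2, 3.52 on day 4, 4.58 on day 5, 1.89 on day 11 and 0.430 on day 18. LOXL2, a lysyl oxidase of the matrix (0.36), and PLAUR, the urokinase receptor (0.38), came next. For ID1 the most alike were KCNH2, a potassium channel subunit (0.14), INSR, the insulin receptor (0.18), and TMEM145 (0.19). For ID2 they included ADCYAP1R1, the PACAP receptor (0.14), and ASTN1, an astrotactin (0.19). The profile nearest to ID4 was CDC42EP4 (0.04), to BMP7 DISP1 (0.06), to BMPR1B MPND (0.09), to SMAD6 PDPN (0.12) and to SMAD7 BCL7A (0.04). With only 7 days, likeness describes the shape of these curves and carries no test.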

How the data were processed

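Groups were taken from the sample titles (20 samples, 7 days). The authors' methods state that reads were aligned to hg19 with TopHat2 at default options, that transcripts were assembled with Cufflinks and that FPKM was estimated with Cuffdiff2. The deposited FPKM values are 1 per record and day over that day's cultures, and the number of columns with single samples was 0. The second deposited table gave record names and exon coordinates. Its columns of the authors' pairwise comparisons (values, fold changes, test statistics, p-values and q-values) were not used. Log2 ratios used FPKM + 0.1, 2-fold for a call and a mean of 1 FPKM for background records. Computations used Python 3.11.15, pandas 2.3.3, NumPy 2.4.6 and Matplotlib 3.10.9, and the script was tested on simulated data. Members and lists were chosen with earlier results of these data known. Named genes were the 10 members, listed genes with a mean of at least 1 FPKM and a 2-fold change from day 0 to day 18, the 3 most abundant of each list, and the 3 profiles most like each member. Motifs were searched in RefSeq windows of the members, with no entry for BMP7 or NOG. Alternatives changed the pseudocount (0.01 or 1 FPKM), the fold (1.5), the scaling, the minimum and the treatment of merged or several records. Values of 2 of the listed genes are not reported here, though the counts include them.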

Additional observations from a re-analysis of the deposited data

How the results depend on the processing

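No paired analysis was possible because the deposited values are pooled over the replicates of each day, and for the same reason no replicate could be left out. Of 128 recomputed counts (16 counts, each under 8 alternatives), 111 stayed within 1.5 times. This includes alternatives that could not alter the member counts. Each member had 1 unmerged record, so summing records or leaving out merged ones returned the same counts. With a pseudocount of 1 FPKM, 0 members were higher on day 1 than on day 0 and 1 was lower on day 18 than on day 11. At 1.5-fold, 2 members were higher and 2 lower from day 0 to day 1, 1 was higher from day 1 to day 2, 1 was higher and 1 lower from day 4 to day 5, 3 were higher and 3 lower from day 5 to day 11, and 5 were lower from day 11 to day 18, while 17 of the 38 listed genes, E proteins and proneural factors included, were lower over the course (10 at 2-fold). Recentred on the coding median, 1 member was lower from day 11 to day 18, and 12 of the 38 were higher and 6 lower over the course (7 and 10 as deposited). With each day's FPKM rescaled to the same sum, these counts were 1, 13 and 5. Without the minimum, 10 of the 70 listed genes were higher and 15 lower over the course. Of 70 member changes, 4 changed sign on recentring and 8 on rescaling, none of them 2-fold. The 2 other pseudocounts and summed records gave 0 changes of sign, but could give no other result. A constant added to both days keeps the sign, and each member had 1 record to sum. Pooled values without read counts limit what can be said of low genes such as NOG.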

Other observations

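Some listed genes below a mean of 1 FPKM also differed between the first and last day, and they are named here after their values were seen. GREM1, a secreted antagonist, stood at 2.103 FPKM on day 0, 0.307 on day 1, 0.343 on day 2, 0.105 on day 4 and 0.0098 on day 18. MSX2, a homeobox target of BMP signals, went from 0.645 FPKM on day 0 to 0.353 on day 1 and 0.037 on day 18. NEUROG1, a proneural factor, went from 0.067 FPKM on day 0 to 0.908 on day 18. SMAD9, the least abundant receptor SMAD and with a mean above 1 FPKM, is named in the same way and stood at 0.630 FPKM on day 0, 2.01 on day 11 and 1.16 on day 18.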
